A study of Mus musculus with 6 samples.

Results

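DNA replication genes encode the proteins that copy the genome in S phase. The set described here holds 43 genes, and each was found in the deposited table, which lists 23284 genes, by an exact match of its symbol. The rule names the genes by their roles in replication, but the set was chosen with earlier results of these data known. Before S phase the origin recognition complex, Cdc6 and Cdt1 load rings of the MCM helicase onto origins, and geminin (Gmnn) blocks a second round of loading by binding Cdt1. At the start of S phase Cdc45 and the GINS complex join MCM to form the active helicase. Primase and polymerase alpha then lay down primers, and polymerases delta and epsilon extend them on the PCNA clamp. In the embryonic heart, ventricular growth relies on dividing cardiomyocytes, most of all in the compact wall, so these genes are widely used as a readout of cycling cells.

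RNA was taken from heart ventricles of mouse embryos at E9.5, with the strain labelled C57BL/6, 3 WT and 3 KD. All were tetraploid chimeras, in which the embryo proper derives from injected ES cells, so WT embryos came from unedited ES cells through the same procedure. The KD embryos have the genotype Tbx5ua -/-: both alleles of Tbx5ua, the lncRNA divergent to Tbx5, carry tandem bovine growth hormone polyadenylation signals at its second exon. The edited ES cells were clonal and derived from C57BL/6 J, and the line behind each sequenced embryo is not given in the sources used here. The table holds 1 FPKM value per gene for the WT group and 1 for the KD group, so no spread between embryos can be given, and no difference below was tested. Library depth is unknown. Positions are in the mm10 build. A search of the gene symbols for Tbx5ua and Tbx5os found no entry, so the labels were not checked against the targeted gene. Cardiomyocyte markers were abundant in both groups, with Tnnt2, the cardiac troponin T gene, at 1842 (WT) and 1807 FPKM (KD).

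Most replication genes had slightly lower values in KD ventricles. The KD value was below the WT value in 33 of the 43 genes (76.7%), against 49.3% of the 11366 genes with a mean FPKM of at least 1 over both groups. All 43 genes passed that minimum. Differences are given as log2((KD + 0.1)/(WT + 0.1)) of the FPKM values, where a negative number means a lower KD value. Their median was -0.11 over the 43 genes and 0.0041 over all 11366 genes. The lower quartile of the set was -0.17 and the upper quartile -0.027, and 27 of the 43 genes differed by less than 10%. The quartiles of all genes and their share within 10% were not calculated, so neither value is particular to the set. Summed over the set, the level was 2833 (WT) and 2609.7 FPKM (KD), a ratio of 0.921. In whole ventricles, fewer cells in S phase and less of these RNAs per cell cannot be told apart. Nor can either be told apart from cell make-up or variation between embryos, with 1 value per group.

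Few of the genes differed by much. With 1 value per group, a difference of more than 0.32 on the log2 scale in either direction, a ratio of 5 to 4, was used to single out genes. That limit was passed by 3 of the 43 genes (6.98%), against 20.1% of all genes. Only Prim2 was higher (background 11.3% of all genes), and Mcm10 and Orc1 were lower (background 8.82%). With each group scaled to the same FPKM sum, 5 genes passed, 1 higher and 4 lower, because Pole and Rpa3 were added. Under that scaling 20.4% of all genes passed, 9.91% higher and 10.5% lower. Past a 1.5-fold ratio there were 0 of the 43 genes, against 6.48% of all genes. Large differences are rarer among abundant genes. Among genes with a mean of 1 to 10 FPKM 31.2% passed the limit of 0.32, and so did 1 of 3 replication genes in that range. From 10 to 100 FPKM the share was 10.1%, with 2 of 31 replication genes. At 100 FPKM and above it was 6.38%, with 0 of 9 replication genes. In each range most replication genes were below 0: 3 of 3, 22 of 31 and 8 of 9, against 48.5%, 51.3% and 45.2% of all genes in the same ranges.

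**Figure D1:**
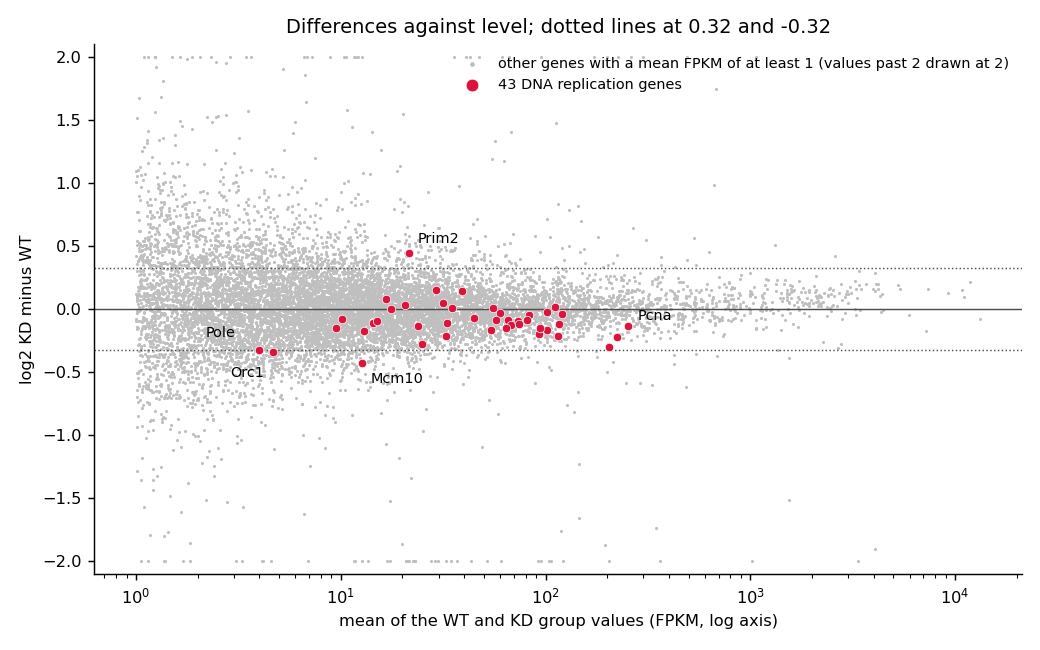
Difference between the KD and WT group values (vertical axis, log2) against the mean of both values (horizontal axis, FPKM, log axis) for each gene with a mean FPKM of at least 1. The 43 replication genes (red) lie mostly just below 0, with Prim2 above and Mcm10 and Orc1 below the dotted lines at 0.32 and -0.32.

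The 6 subunits of the replicative helicase, Mcm2 to Mcm7, form a ring with 1 copy of each. All 6 had a KD value below WT, with a median difference of -0.067, and none passed the limit of 0.32. Mcm7 was the highest, with 122 (WT) and 118 FPKM (KD). Mcm2 had 107 (WT) and 95.6 FPKM (KD), Mcm6 had 103 and 101 FPKM, and Mcm3 had 84.8 and 82.1 FPKM, in the same order. The lowest levels were those of Mcm5, with 67.3 (WT) and 63.4 FPKM (KD), and of Mcm4, with 57.3 and 51.1 FPKM. The differences ran from -0.17 in Mcm2 to -0.022 in Mcm6. FPKM is scaled per transcript length, so levels were set side by side between genes. Other effects of transcript length or of cDNA amplification on the levels were not examined. Within the ring the levels spanned 2.13-fold in WT and 2.32-fold in KD. The order by level was the same in both groups except for Mcm2 and Mcm6, which changed places.

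The origin recognition complex marks the sites where replication can start, and its levels were uneven. Orc6 had 60.4 (WT) and 59.1 FPKM (KD), while Orc1 had 5.22 and 4.10 FPKM, a span of 11.6-fold in WT and 14.4-fold in KD. Orc1, the largest subunit, lay at chr4:108579454-108614831 and had a difference of -0.34. With a pseudocount of 1 in place of 0.1 its difference was -0.29, within the limit. Orc5 was next, with 27.2 (WT) and 22.4 FPKM (KD), a difference of -0.28. Orc2 had 17.6 FPKM in both groups. Orc3 went from 14.9 (WT) to 13.8 FPKM (KD), and Orc4 from 25 to 22.8 FPKM. Orc3, Orc4 and Orc5 share their locus in the table with Akirin2, Acvr2a and Gm15421, so reads could be split between neighbours.

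Helicase loading is controlled by Cdc6, Cdt1 and geminin. Geminin and its target differed in opposite directions. Gmnn had 124 (WT) and 107 FPKM (KD), a difference of -0.22, and Cdt1 had 37.0 (WT) and 40.9 FPKM (KD), a difference of 0.14. The level of Gmnn was 3.36 times that of Cdt1 in WT and 2.62 times in KD, a comparison made after the values were seen. Cdc6, the ATPase that recruits MCM together with Cdt1, had 13.7 (WT) and 12.2 FPKM (KD). All 3 differences were within the limit of 0.32.

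The genes of helicase activation held the largest lower value of the set. Mcm10, a scaffold that binds the active helicase and polymerase alpha, had 14.6 (WT) and 10.8 FPKM (KD), a difference of -0.43 or 25.8% less. It lies at chr2:4990724-5012791 on the reverse strand and shares its locus with no other gene of the table. Cdc45 had 34.9 (WT) and 30.1 FPKM (KD), a difference of -0.21. The GINS subunits, which act as 1 complex, did not go 1 way. Gins2 had 99.0 (WT) and 86.2 FPKM (KD) (-0.20), and Gins3 had 10.5 and 9.88 FPKM (-0.083). Gins1 was higher in KD, with 27.7 (WT) and 30.8 FPKM (KD) (0.15). Gins4 had 55.3 and 55.7 FPKM, a difference of 0.012 that turned to -0.019 with each group scaled to the same FPKM sum. Gins2 shares its locus in the table with Gse1.

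The sliding clamp and its loader come next in the pathway. Pcna, the clamp itself and a common marker of S phase, had the highest level of the set in both groups, with 264 (WT) and 240.3 FPKM (KD), a difference of -0.14. Its locus is chr2:132249286-132253180. Of the 5 loader subunits, Rfc1, the large one, had the lowest level, with 16.1 (WT) and 17.0 FPKM (KD) (0.078). Rfc4 had 121 and 112 FPKM (-0.12), Rfc5 had 70.5 and 64.4 FPKM (-0.13), and Rfc3 had 58.9 and 55.5 FPKM (-0.086). Rfc2 had 111 (WT) and 112 FPKM (KD), and its difference of 0.015 turned to -0.015 with equal FPKM sums. Rfc4 shares its locus in the table with Eif4a2, an abundant gene.

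Replication protein A coats single-stranded DNA at the fork, and its 3 genes were all lower in KD. Rpa3, the smallest subunit, had 226 (WT) and 183 FPKM (KD), a difference of -0.30. It reached -0.33 with equal FPKM sums, past the limit. Rpa2 had 83.4 (WT) and 78.5 FPKM (KD), and Rpa1 had 75.7 and 70.8 FPKM, differences of -0.087 and -0.098.

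Primase starts each new strand with a short RNA, and its 2 subunits parted. Prim2, the large subunit, had 18.3 (WT) and 24.9 FPKM (KD), a difference of 0.45 or 36.5% more and the largest in either direction. Prim1, the catalytic subunit, had 46.0 (WT) and 43.7 FPKM (KD), a difference of -0.074. The level of Prim1 was thus 2.52 times that of Prim2 in WT and 1.75 times in KD. Prim2 lies at chr1:33453811-33669758 and no other gene of the table has that locus. Of the polymerase alpha genes, Pola1, the catalytic subunit, had 9.97 (WT) and 8.97 FPKM (KD), and Pola2 had 34.2 and 31.7 FPKM.

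The catalytic subunits of the main polymerases also had unlike differences. Pole, which copies the leading strand, had the lowest level of the set, with 4.44 (WT) and 3.53 FPKM (KD). Its difference of -0.32 lay just inside the limit, and it passed with a pseudocount of 0.01 (-0.33), with the median of all genes subtracted (-0.33) and with equal FPKM sums (-0.35). With a pseudocount of 1 its difference was -0.26, within the limit. Pole2, its second subunit, had 15.6 (WT) and 14.6 FPKM (KD). Pold1, the catalytic subunit of polymerase delta, had 31.0 (WT) and 32.1 FPKM (KD), a difference of 0.048. Pold2 had 98.7 and 89.1 FPKM (-0.15) and shares its locus in the table with Aebp1. The flap nuclease gene Fen1 had 67.1 (WT) and 60.3 FPKM (KD) (-0.15). Lig1, the ligase that seals Okazaki fragments, had 34.8 and 34.9 FPKM, and its difference of 0.0061 turned to -0.024 with equal FPKM sums.

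Nucleotide supply is limited by ribonucleotide reductase, whose small subunit gene Rrm2 is induced in S phase. Rrm2 had 240.2 (WT) and 206 FPKM (KD), a difference of -0.22, and was the second most abundant gene of the set. Its partner Rrm1 had 76.9 (WT) and 70.8 FPKM (KD) (-0.12). Tyms, which makes thymidylate, had 20.3 and 20.8 FPKM (0.035). Its annotated pseudogene Tyms-ps had only 0.0777 (WT) and 0.0489 FPKM (KD).

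**Figure D2:**
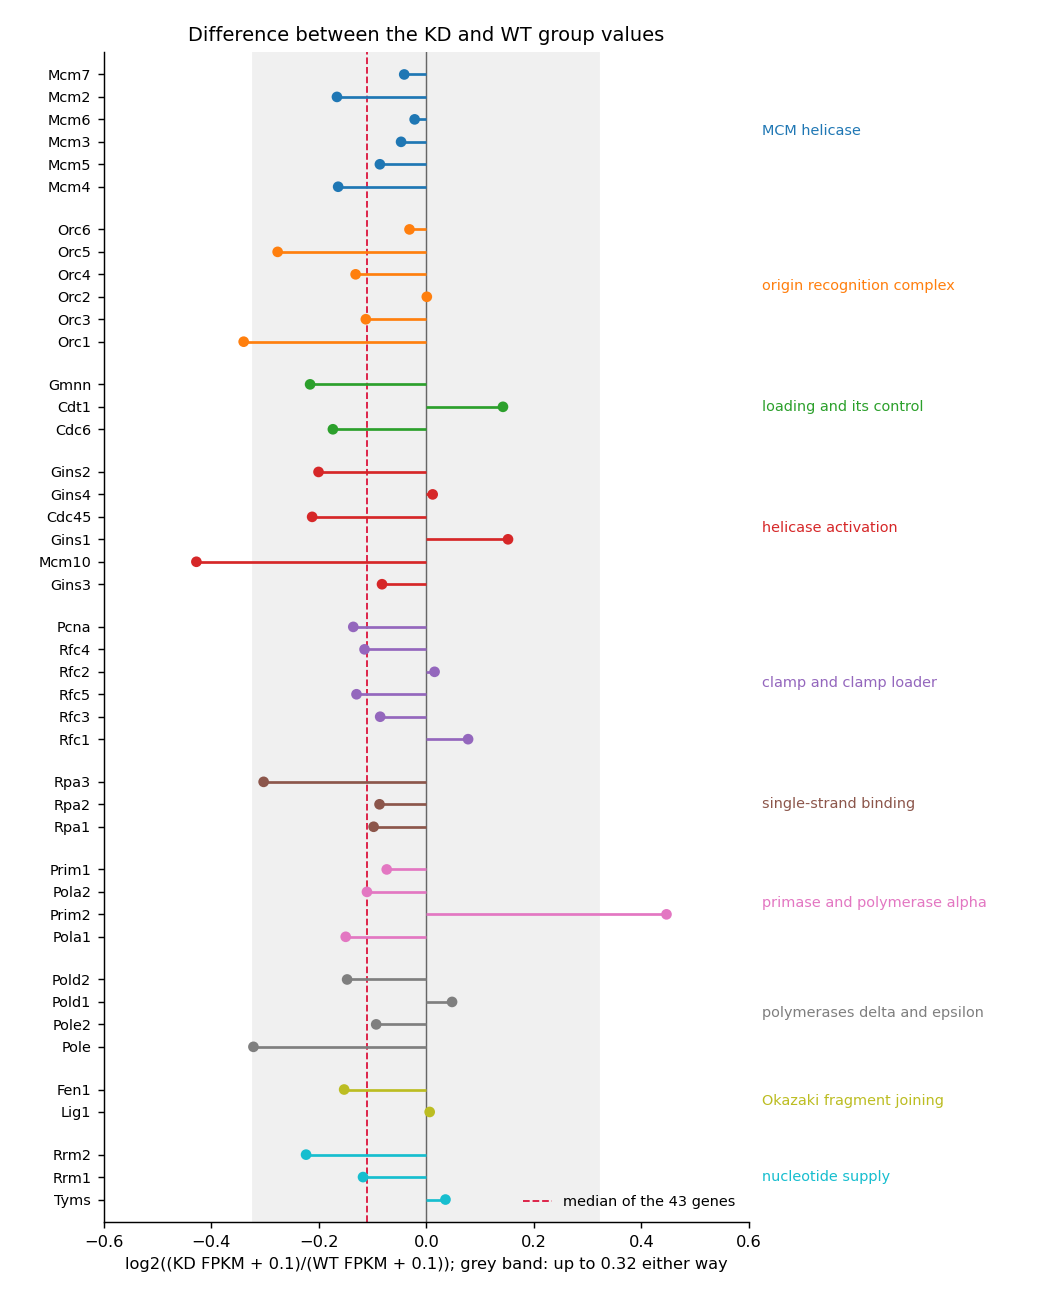
Difference between the KD and WT group values (log2 of FPKM + 0.1) of each replication gene, grouped by role and ordered by WT level. The 6 MCM genes and the 3 replication protein A genes all lie left of 0, and only Prim2, Mcm10 and Orc1 leave the grey band, which ends at 0.32 in either direction.

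The order of the genes by level was nearly the same in WT and KD. Pcna, Rrm2 and Rpa3 were the highest and Pole and Orc1 the lowest in both groups. Levels spanned a far wider range than any difference between the groups. No gene moved by more than 4 places, and 3 moved by more than 2. The median of the means of the 43 genes was 54.2 FPKM, against 10.2 FPKM over all genes, so they sit in the part of the table where large differences are rare. Among the 43 genes the difference did not go with level (rho -0.037) or with the length of the longest coding transcript (rho -0.072). In all genes with such a length (9906) rho with length was -0.15. The 35 genes with a locus of their own had a median difference of -0.093, with 26 below 0, and the 8 genes with a shared locus had -0.12, with 7 below 0. Mcm7, whose introns hold microRNA genes, and Lig1 are also among those 8.

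**Figure D3:**
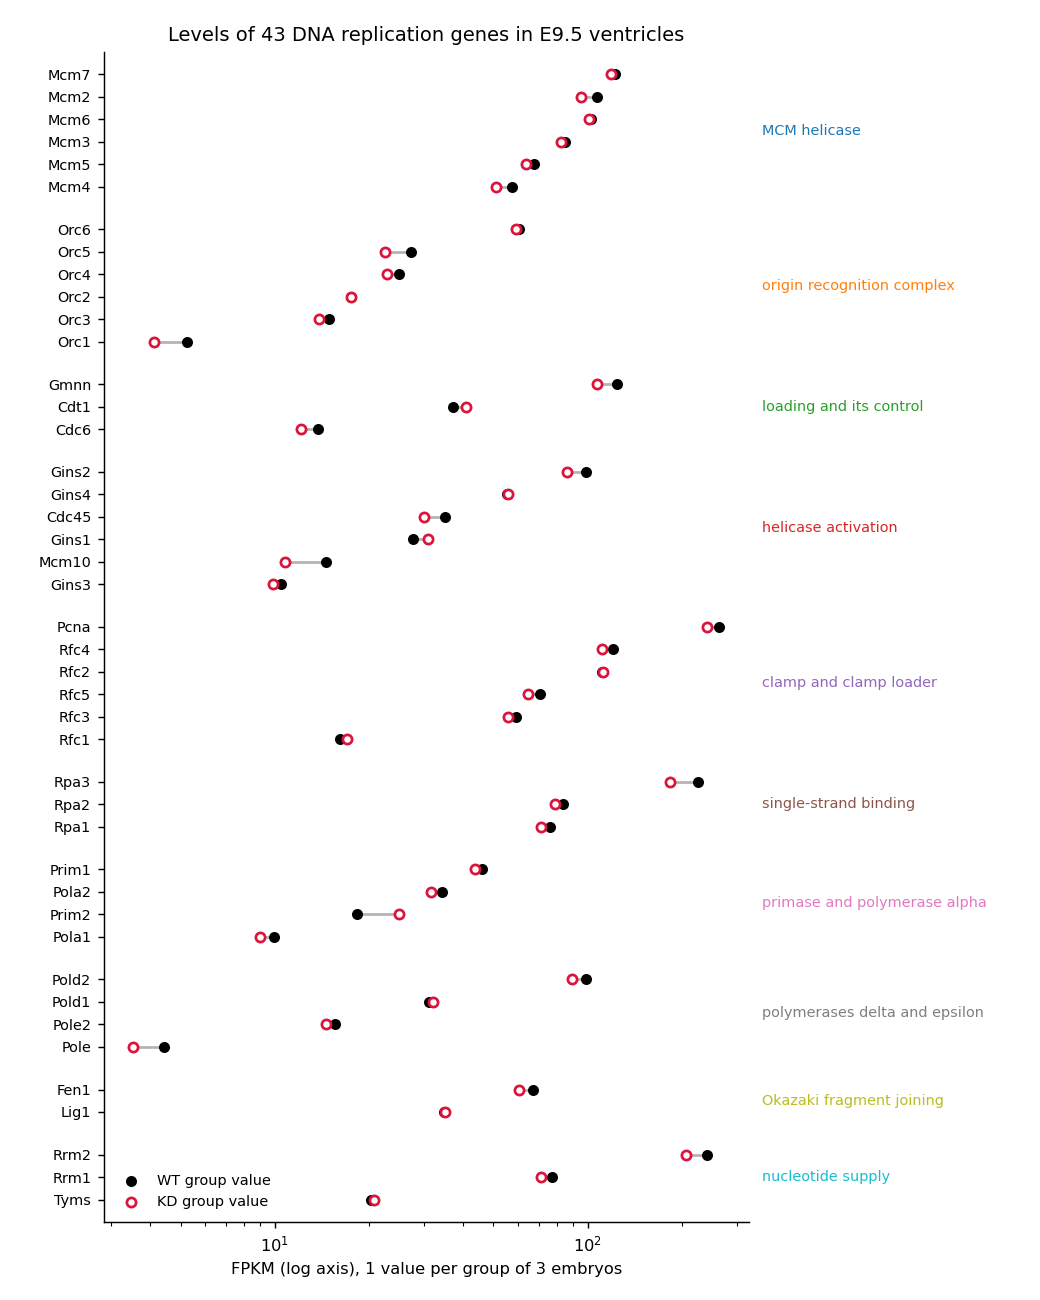
WT (black) and KD (open red) group values of the 43 replication genes on a log axis of FPKM, grouped by role; each point is 1 value for 3 embryos and no error can be drawn. The MCM genes lie between 51.1 and 122 FPKM, while the polymerase and origin recognition genes spread over more than 10-fold.

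Many replication genes are E2F targets, and their promoters were read for the E2F word. RefSeq promoters (GRCm38.p6, 250 bases before to 50 after the start) were at hand for 35 of the 43 genes, 43 promoters in all. Gins1, Gins2, Gins4, Gmnn, Mcm4, Pole, Prim2 and Rfc2 had no entry. The words TTTCCCGC, TTTCGCGC, TTTGCCGC and TTTGGCGC were searched on both strands, and overlapping matches were each counted. At least 1 word was present in 14 of the 43 promoters (32.6%), against 2.26% of all 32851 promoters and 3.93% of the 10320 promoters of the other genes with a mean FPKM of at least 1. The GC content was alike, with a median of 60.0% for the set and 61.0% for those other genes. The 14 genes were Mcm3, Mcm5, Mcm6, Mcm7, Orc1, Orc3, Cdc6, Cdt1, Gins3, Rfc3, Pola1, Pold1, Pole2 and Lig1. CCAAT, the word of NF-Y, was in 58.1% of the set's promoters and in 38.0% of those of the other genes, and GGGCGG, the GC box, in 69.8% and 64.2%.

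Words upstream of the RefSeq start are shown to let the sites be compared between genes. Each line reads 5′ to 3′ on the strand of the gene with the E2F word in capitals. The stretch of Cdc6 lies inside the locus that the table gives for the gene, which begins farther upstream. Where the stretch touches an annotated exon it is cut to at most 30 bases. In Mcm5 and Mcm6 a word on each strand overlap in 1 run of capitals, and Mcm6 has a further word closer to the start.

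Mcm5, chr8:75109326-75109397, forward strand: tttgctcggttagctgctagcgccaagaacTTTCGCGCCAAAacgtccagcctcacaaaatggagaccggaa

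Mcm6, chr1:128359715-128359845, reverse strand: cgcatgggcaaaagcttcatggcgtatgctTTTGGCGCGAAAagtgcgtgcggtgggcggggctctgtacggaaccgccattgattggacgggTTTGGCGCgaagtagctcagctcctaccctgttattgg

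Mcm7, chr5:138172030-138172059, reverse strand: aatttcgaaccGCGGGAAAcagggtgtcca

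Orc1, chr4:108579416-108579445, forward strand: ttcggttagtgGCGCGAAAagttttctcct

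Orc3, chr4:34614965-34614994, reverse strand: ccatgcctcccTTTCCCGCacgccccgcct

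Cdc6, chr11:98907983-98908050, forward strand: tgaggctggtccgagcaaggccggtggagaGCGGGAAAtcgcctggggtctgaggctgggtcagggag

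Gins3, chr8:95633507-95633536, forward strand: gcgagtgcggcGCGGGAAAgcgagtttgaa

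Rfc3, chr5:151651209-151651229, reverse strand: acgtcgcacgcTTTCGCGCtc

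Pola1, chrX:93632256-93632323, reverse strand: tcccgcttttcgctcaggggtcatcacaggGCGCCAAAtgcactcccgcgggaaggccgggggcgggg

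For Mcm10, the gene with the largest lower value, and Rrm2, one of the most abundant, no E2F word was in the window, and the stretch with CCAAT in capitals is given.

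Mcm10, chr2:5012792-5012919, reverse strand: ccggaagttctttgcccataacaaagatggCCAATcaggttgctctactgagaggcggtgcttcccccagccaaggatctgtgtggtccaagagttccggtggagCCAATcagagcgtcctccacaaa

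Rrm2, chr12:24708174-24708238, forward strand: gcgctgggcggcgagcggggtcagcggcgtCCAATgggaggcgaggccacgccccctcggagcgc

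Genes with and without an E2F word were both mostly below 0, and the difference between these groups was not tested. The 8 genes with no promoter entry, Prim2 and Pole among them, are in neither group. The 14 genes with a word had a median difference of -0.084, with 11 below 0. The 21 genes without a word had a median of -0.13, with 18 below 0. A match is a description of the letters and no evidence of binding.

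**Figure D4:**
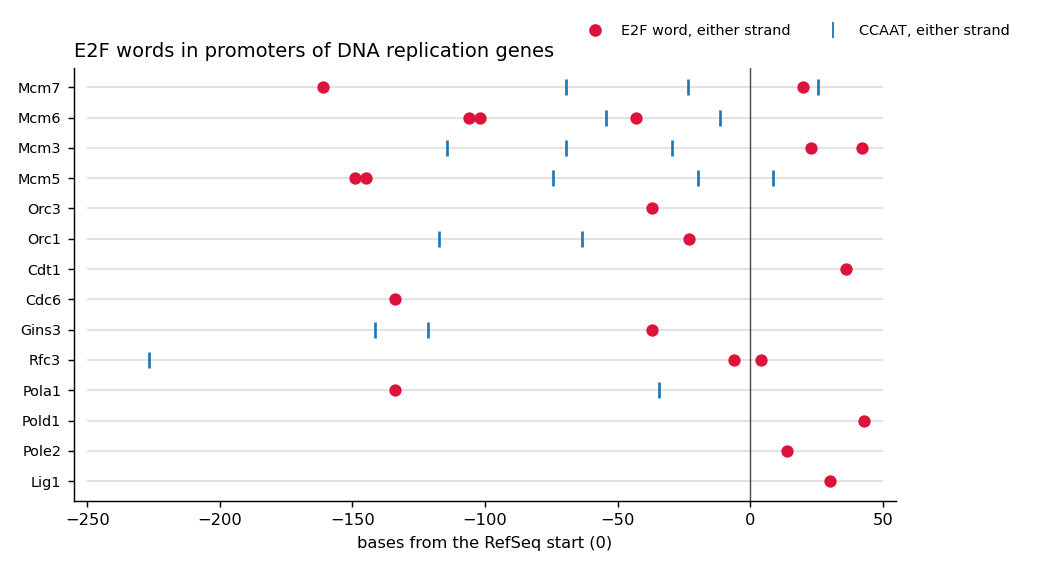
Positions of E2F words (red) and CCAAT (blue bars) on either strand in the promoters of the 14 replication genes that hold an E2F word, in bases from the RefSeq start; for Mcm7 and Lig1 the start that holds the word is drawn. Of 20 words, 12 lie wholly upstream of the start.

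The rest of the pathway was read from a list of 66 other replication genes, of which 65 had a mean FPKM of at least 1. Here the KD value was lower in 36 and higher in 29, with a median difference of -0.028, and 3 genes passed the limit of 0.32 in each direction. The share below 0 was 55.4%, near the 49.3% of all genes, and the 3 genes past the limit in each direction stand beside 8.82% (lower) and 11.3% (higher) of all genes. Of the genes of chromatin assembly at the fork, 9 of 10 were below 0, with a median of -0.11. Supt16 (listed as Supt16h), a histone chaperone of the FACT complex, had the lowest difference of that group (-0.21), and Chaf1a the highest (0.21). Cad, which begins pyrimidine synthesis, passed the limit with 18.1 (WT) and 14.1 FPKM (KD) (-0.36). Clspn, which relays stalled forks to the checkpoint kinase, was higher, with 3.32 (WT) and 5.03 FPKM (KD) (0.59).

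The E2F genes themselves went both ways, and so did the activators E2f1, E2f2 and E2f3. E2f3, the most abundant of these 3, had 10.2 (WT) and 6.96 FPKM (KD) (-0.55), and E2f6, a repressor, had 12.7 and 9.69 FPKM (-0.39). E2f1 and E2f2 were higher in KD at low levels, with 2.86 and 3.64 FPKM for E2f1 (0.34) and 1.31 and 1.70 FPKM for E2f2 (0.36), WT first. With a pseudocount of 1 both were within the limit, at 0.27 for E2f1 and 0.23 for E2f2, and with equal FPKM sums E2f1 was too, at 0.31. Of the 12 E2F and RB genes with a mean of at least 1 FPKM, 4 were lower and 8 higher. Of 5 genes of S phase cyclins and kinases 4 were lower in KD, with a median of -0.060, from -0.26 in the cyclin gene Ccne2 to 0.14 in the kinase gene Cdk2, and 0 passed the limit. The 4 genes of alternative clamp loaders were all higher in KD, with differences from 0.0033 in Dscc1 to 0.20 in Chtf18, and 0 passed the limit. That of Dscc1 is smaller than the 0.031 by which the FPKM sums of both groups differ on the log2 scale. Beside the counts of these short lists, 49.3% of all genes had a lower KD value and 20.1% passed the limit.

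Genes of mitosis were also mostly lower in KD. Of 22 genes, 18 had a KD value below WT, with a median of -0.15, and 0 passed the limit. Over all genes 49.3% were below WT and 20.1% passed. The differences ran from -0.30 in Cenpf, a kinetochore gene, to 0.18 in Tpx2, a spindle assembly gene. Mki67, the gene of the Ki-67 antigen, had 11.9 (WT) and 10.1 FPKM (KD). Top2a had 73.5 (WT) and 66.6 FPKM (KD). The difference between the medians of the mitosis and replication lists was not tested.

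Marker genes of cell types were read beside these values. The epicardial list had 6 of 7 genes with a mean FPKM of at least 1, and all 6 were past the limit and higher in KD. Over all genes 11.3% were past the limit and higher. Its summed level was 47.3 (WT) and 96.8 FPKM (KD), and the differences ran from 0.48 in Wt1 to 1.40 in Upk3b. Markers of the main cells of the ventricle differed less in sum. The 9 cardiomyocyte genes summed to 30591 (WT) and 31536 FPKM (KD), with differences from -0.25 in Myh6 to 0.22 in Myl2. The 8 endocardial genes summed to 155 and 169.6 FPKM, with Nfatc1 the lowest (-0.26) and Emcn the highest (0.41). The 8 primitive erythroid genes summed to 11463 and 11538 FPKM, with Slc4a1 the lowest (-0.41). Markers of the wall layers did not go 1 way. Of the 3 compact myocardium genes, Mycn had 72.6 (WT) and 53.9 FPKM (KD) (-0.43), Tbx20 had 53.3 and 44.8 FPKM (-0.25), and Hey2 had 31.2 and 34 FPKM (0.13). Their sum was 157 FPKM in WT and 133 in KD. The trabecular list ran from -0.43 in Nppb to 0.78 in Gja5, and its member Sln was listed at 0 in both groups. Markers of other cells were near 0, except Tubb3. Macrophage genes summed to 0.530 and 0.282 FPKM and hepatic and yolk sac genes to 0.607 and 1.37 FPKM, WT first, with Alb and Fgb listed at 0. In the neural list Tubb3 had 12.2 and 26.9 FPKM, while Foxd3 and Sox2 were listed at 0. The part of cell type make-up in the values of the replication genes was not tested.

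**Figure D5:**
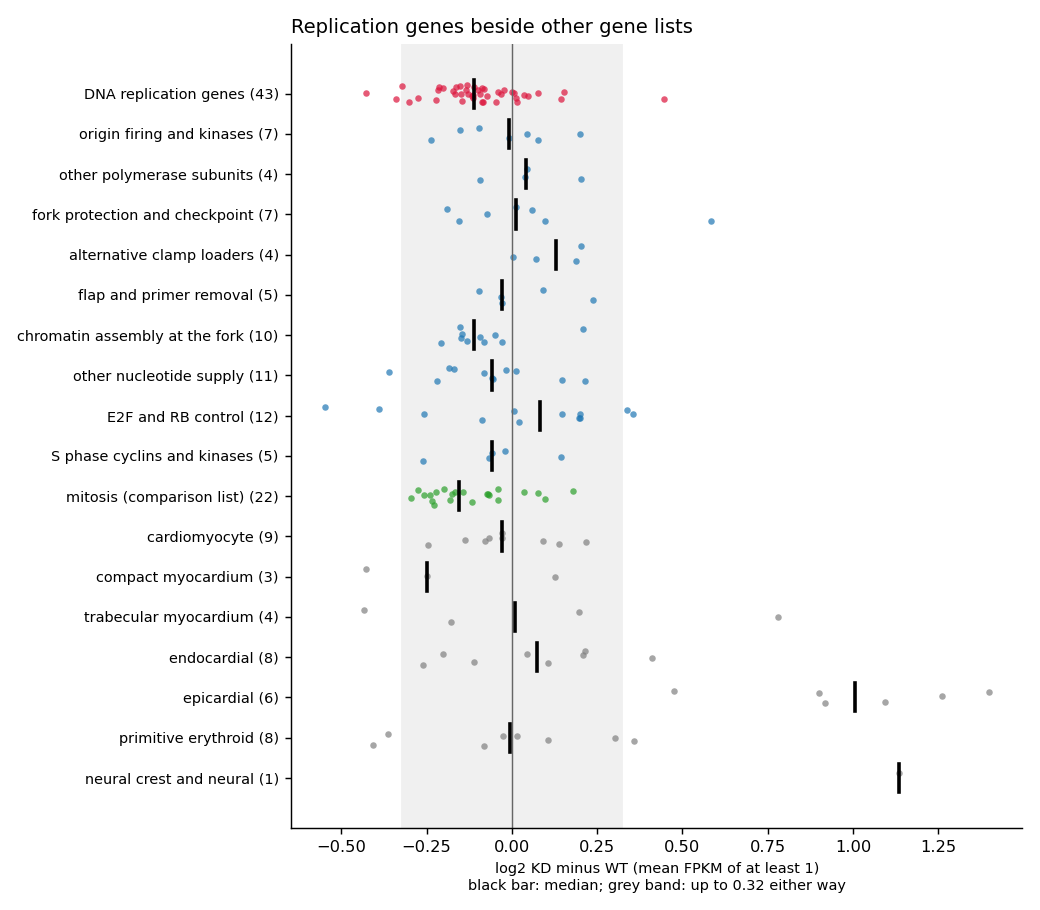
Differences between the KD and WT group values (log2) of single genes in each list, with the list's median as a black bar; the number of genes is in brackets. The replication (red) and mitosis (green) genes cluster left of 0, with medians of -0.11 and -0.15, and the epicardial genes lie far to the right.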

How the data were processed

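RNA-seq was made from 3 WT and 3 KD ventricle samples by Smart-Seq2, which amplifies full-length cDNA by PCR, with single-end reads. The submitters' processing notes name TopHat, Bowtie2, Cuffdiff and mm10 and no versions. The authors deposited 1 Cuffdiff table with an FPKM value per gene and group, the KD group under the name KO. Its fold changes, test statistics, p-values and q-values are the authors' own comparison and were not used. There were 0 columns of single embryos to leave unused. Read depth was not recovered from these values. Actc1 is listed at 0 as having too many reads, and 2 genes in all carry that mark. The FPKM sums used for scaling therefore lack Actc1.

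Differences were log2((KD + 0.1)/(WT + 0.1)), with a mean FPKM of at least 1 and a limit of 0.32 on the log2 scale. The calculation was tested on simulated group values with 200 changed genes. Named genes were the 5 highest and 5 lowest differences, the highest and lowest levels of each complex and Pcna, Mcm2, Cdt1, Gmnn and Rrm2, of the other replication genes those past that limit, and of each marker list its extremes, of which 1 is not reported here. Genes named outside this rule were picked with their values in view. The members and lists were chosen with earlier results of these data known. Ticrr, Supt16 and Adgre1 were found under older symbols. Locus starts had 1 added: 9652 then matched a transcript start of GENCODE M21 and 944 did without. Python 3.11.15, NumPy 2.4.6, pandas 2.3.3 and Matplotlib 3.10.9 were used.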

Additional observations from a re-analysis of the deposited data

How the results depend on the processing

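No paired analysis was possible because each group has 1 deposited value per gene, so neither a fit with the replicate number as a block nor a fit without each replicate was run. The count of 33 replication genes with a KD value below WT and their median of -0.11 stayed within 1.5 times and within 0.05 under the other pseudocounts, filters and scalings and without shared loci. The sign of 4 single genes near 0 (Gins4, Lig1, Orc2 and Rfc2) turned with equal FPKM sums, and that of Orc2 (0.00077) also with the median of all genes subtracted. The count of 3 genes past 0.32 on the log2 scale was 2 with a pseudocount of 1 and 2 with a mean FPKM of at least 5. It was 4 with a pseudocount of 0.01 and 4 with the median of all genes subtracted. It became 5 with equal FPKM sums, and 0 at 1.5-fold and 0 at 2-fold, limits that can only lower it. The count of 6 other replication genes became 3 (0 higher, 3 lower) with a mean FPKM of at least 5, 1 at 1.5-fold and 0 at 2-fold. The mitosis count of 0 became 1 with equal FPKM sums. Over all genes the count of 2288 became 929 with a mean FPKM of at least 5, 5746 with no filter, 736 at 1.5-fold and 228 at 2-fold, which change the genes or the limit. Counts at settings not named here were the same or stayed within 1.5 times. The unknown depth and the missing values of single embryos limit each statement to these group values.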
